A study of Mus musculus with 18 samples.

Results

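Mnx1, Lhx3, Lhx4 and Isl2, transcription factors of somatic motor neurons, were followed through the 6 groups of a study of Hoxb1, a homeodomain factor of the anterior Hox genes, in mouse cells. They are 4 of the 37224 genes in the deposited table and were chosen by symbol, with no threshold on a measured value. RNA was sequenced from 18 libraries, 3 in each group, of cells derived from embryonic stem cells of strain C57BL/6. In wild-type NMPs (neuromesodermal progenitors, which give rise to spinal cord and paraxial mesoderm) and Hoxb1 null NMPs, the labels name no agent beyond the differentiation itself. The other 4 groups were neural progenitors (NP) not expressing Hoxb1 and given no agent, expressing Hoxb1 and given doxycycline (DOX), not expressing Hoxb1 and given SAG (a Smoothened agonist that turns on hedgehog signalling), or expressing Hoxb1 and given SAG and DOX. Controls received no DOX by their labels, so Hoxb1 and DOX cannot be told apart. Wild-type and null NMPs may differ in more than Hoxb1, since the number of lines or clones is not stated in the sources used here, and neither is whether the 3 libraries of a group came from separate cultures. The p-values then measure only the spread between libraries, which may be technical.

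Total counts were 16523276 to 21141058 per NMP library, 13301476 to 14505711 per neural progenitor library without SAG and 22610407 to 26974315 with SAG. Library numbers run from 8085 to 8090, 7390 to 7395 and 2533 to 2538 in these 3 sets, so every comparison of SAG with no SAG is confounded with the library set, while both Hoxb1 states lie within each set. The labelled cell types were checked against markers. 10 NMP markers summed to 1880 to 2390 CPM (read counts scaled to the size of the library) in NMP libraries and to 394 to 682 CPM in neural progenitor libraries, and 8 neural progenitor markers summed to 594 to 681 and 2480 to 4430 CPM. The neural progenitor libraries also held RNA of neurons, with 15 pan-neuronal genes summing to 1130 to 3130 CPM against 340 to 373 CPM in NMPs. All libraries are of bulk RNA, in which more cells of a type and more RNA per cell cannot be told apart.

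In the developing spinal cord, sonic hedgehog induces Olig2 and Nkx6-1 in ventral progenitors, and these give rise to motor neurons. As motor neurons leave the cell cycle, Lhx3 and Lhx4, a pair of LIM homeodomain factors with overlapping roles, act with Isl1 and the cofactor Ldb1 on motor neuron genes, while without Isl1 they take part in V2a interneuron identity. Mnx1 (also called HB9) holds the motor neuron state and represses interneuron genes, and Isl2 supplements Isl1. Hindbrain branchiomotor and visceral motor neurons, which express Phox2a and Tbx20 and share Isl1 and Chat with somatic motor neurons, do without Mnx1, Lhx3 and Lhx4. Hoxb1 is known for its role in rhombomere 4, where facial branchiomotor neurons arise.

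The sequences just upstream of the RefSeq transcription starts (build GRCm38.p6, the mm10 assembly used by the counts) are shown for Lhx4 and Lhx3, the genes that rose with Hoxb1 in both SAG states, and for Mnx1, which was not called in either. Each is the stretch of the 250 upstream bases that lies outside annotated exons, 5′ to 3′ on the minus strand of the gene, with motif matches in capitals.
Lhx4 (chr1:155742121-155742277): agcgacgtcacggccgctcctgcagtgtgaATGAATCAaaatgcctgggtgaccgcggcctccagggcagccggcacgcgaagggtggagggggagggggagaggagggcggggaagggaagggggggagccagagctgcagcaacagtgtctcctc
Lhx3, second start (chr2:26206576-26206701): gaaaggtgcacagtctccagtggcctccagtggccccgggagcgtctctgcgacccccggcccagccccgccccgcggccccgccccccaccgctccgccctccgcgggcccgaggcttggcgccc
Mnx1 (chr5:29478520-29478720): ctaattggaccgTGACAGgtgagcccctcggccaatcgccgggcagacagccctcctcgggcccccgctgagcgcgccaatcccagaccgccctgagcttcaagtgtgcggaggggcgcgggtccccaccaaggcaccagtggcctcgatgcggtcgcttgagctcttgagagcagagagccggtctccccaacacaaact
The capitals mark a Hox/Pbx match in Lhx4 and a Meis match in Mnx1.

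6 motifs were searched on both strands of the full 250 bases: TGATNNAT (Hox/Pbx), TGACAG (Meis), TGGGTGGTC (Gli), the E-boxes CATATG and CAGATG, and TAATTA (homeodomain core). The Lhx4 window held the Hox/Pbx letters once, as ATGAATCA, 220 bases upstream of the start, and 7.68% of 32851 RefSeq windows of this length hold it. The Mnx1 window held TGACAG 238 bases upstream, as do 15.9% of windows. The second Lhx3 window held CAGATG, read as CATCTG, 215 bases upstream in an annotated exon and so not shown, and 14.4% of windows hold it. The window at the first Lhx3 start and the Isl2 window held none of the 6. TGGGTGGTC is in 0.225%, CATATG in 3.46% and TAATTA in 4.84% of windows. A match describes the letters only, and binding was not measured.

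Lhx4 (ENSMUSG00000026468, chromosome 1, 155698036 to 155742120, minus strand) varied most among the 4 genes. Its level was 0.499, 0.718 and 0.421 CPM in the 3 neural progenitor libraries without Hoxb1 or SAG, and 10.4, 10.3 and 10 CPM in those with Hoxb1. With SAG it was 1.0, 1.18 and 0.944 CPM without Hoxb1 and 23.6, 20.2 and 22.3 CPM with it. These 4 groups did not overlap, and both Hoxb1 groups lay far above the rest. NMP libraries held 1, 13 and 9 counts in wild type (0.0655, 0.671 and 0.523 CPM) and 3, 2 and 3 counts in null cells (0.189, 0.112 and 0.185 CPM), which overlap.

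Lhx3 (ENSMUSG00000026934, chromosome 2, 26200212 to 26208289, minus strand) was low throughout. Neural progenitors held 0, 3 and 1 counts without Hoxb1 or SAG, and 17, 11 and 17 counts (1.16, 0.816 and 1.18 CPM) with Hoxb1. With SAG the counts were 0, 1 and 3 without Hoxb1 and 11, 10 and 13 (0.468, 0.386 and 0.506 CPM) with it. Every library with Hoxb1 was thus above every neural progenitor library without it, and those with Hoxb1 alone were above those with Hoxb1 and SAG. In NMPs Lhx3 was at 0.131, 0.62 and 0.349 CPM in wild type and 1.07, 0.949 and 1.11 CPM in null cells, so that the null libraries lay with the neural progenitors given Hoxb1 alone at the top of its order.

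Mnx1 (ENSMUSG00000001566, chromosome 5, 29473038 to 29478519, minus strand) was highest in NMPs, at 2.03, 1.65 and 1.45 CPM in wild type and 1.2, 1.51 and 1.42 CPM in null cells. In neural progenitors without SAG it was at 0.357, 0.503 and 0.631 CPM without Hoxb1 and 0.273, 0.668 and 0.415 CPM with it, which overlap. SAG libraries had 0.837, 1.01 and 0.944 CPM without Hoxb1 and 1.36, 1.35 and 1.21 CPM with it. Its order ran from both NMP groups and Hoxb1 with SAG, neighbours that overlapped, to SAG alone and then to the groups without SAG.

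Isl2 (ENSMUSG00000032318, chromosome 9, 55538672 to 55546180, plus strand) was highest with Hoxb1 and SAG together, at 1.28, 1.39 and 1.25 CPM. SAG alone gave 0.46, 0.418 and 0.452 CPM, Hoxb1 alone 0.273, 0.445 and 0.138 CPM and neither 0.0713, 0.287 and 0.351 CPM. The 3 lower groups overlapped in part, Hoxb1 alone with both others, and none of their libraries reached the group with both. NMPs lay between, at 0.786, 0.93 and 0.814 CPM in wild type and 0.568, 0.67 and 0.801 CPM in null cells.

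Levels between genes were compared per kilobase of exon (CPM per kb). In neural progenitors with Hoxb1 and SAG, Lhx4 stood at 3.94 ± 0.31 CPM per kb (SD, n = 3), above Isl2 at 0.595 ± 0.0345, Mnx1 at 0.569 ± 0.0378 and Lhx3 at 0.149 ± 0.0202. With neither agent, Mnx1 led at 0.217 ± 0.0599 CPM per kb, with Isl2 at 0.108 ± 0.0668, Lhx4 at 0.0975 ± 0.0275 and Lhx3 at 0.0313 ± 0.0361. Differences between genes were not tested. These 3 libraries together held 21 counts of Mnx1, 10 of Isl2, 23 of Lhx4 and 4 of Lhx3, so small differences were not detectable there.

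**Figure D1:**
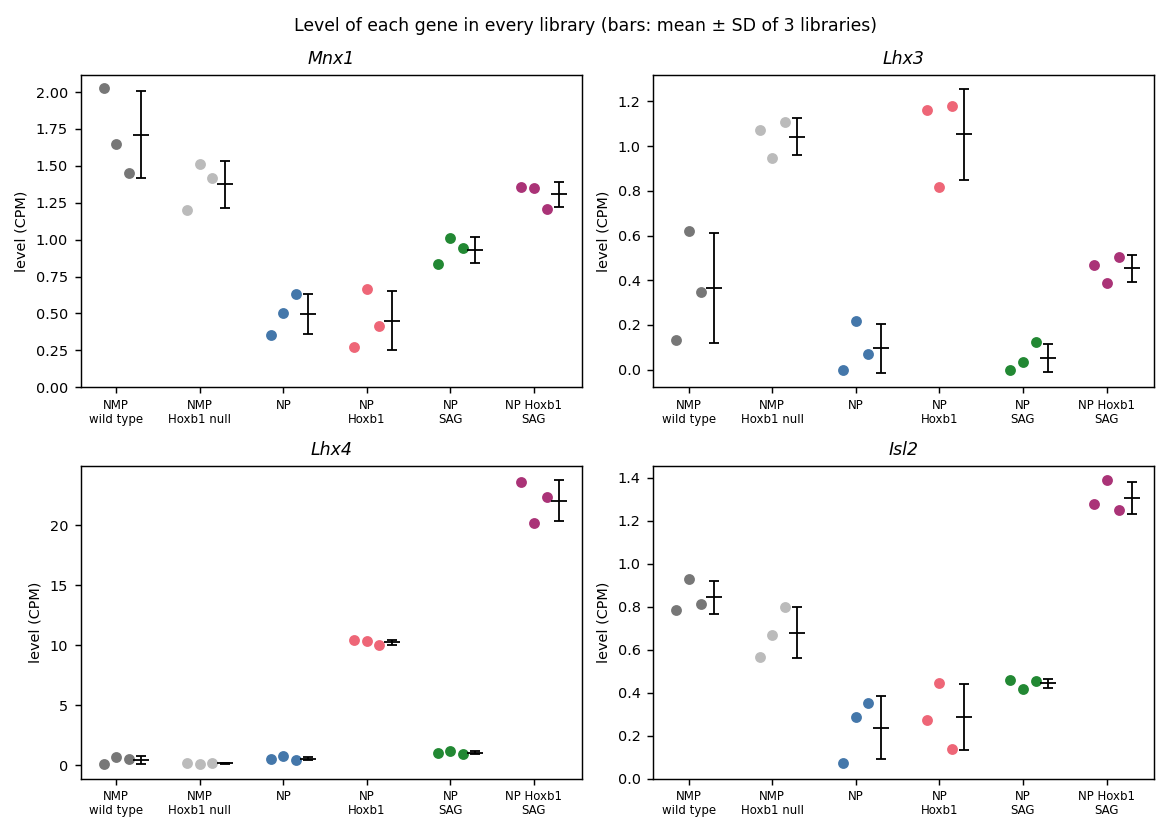
Level of Mnx1, Lhx3, Lhx4 and Isl2 (vertical axis, CPM) in each of the 18 libraries by group (horizontal axis), with points for libraries and bars for the mean and SD of 3 libraries. Lhx4 is at 10 CPM or above only in the 6 neural progenitor libraries labelled as expressing Hoxb1, Isl2 is highest with Hoxb1 and SAG, and Mnx1 is highest in NMPs.

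Hoxb1 itself was checked first. It was at 0.0701 to 0.647 CPM in neural progenitors without Hoxb1 or SAG and 305 to 336 CPM with Hoxb1, at 0.383 to 0.502 CPM with SAG alone and 572 to 614 CPM with both, and at 241 to 272 CPM in wild-type and 14.8 to 16.2 CPM in null NMPs. The libraries follow their labels. The Hoxb1 level with SAG exceeded that without it (log2 change 0.87, SE 0.0371, edgeR adjusted p = 2.11e-19), so the groups differ in the amount of Hoxb1 RNA as well as in SAG.

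Without SAG, Hoxb1 was accompanied by a rise of both Lhx3 and Lhx4, the LIM factors shared by motor neurons and V2a interneurons, and by no call for Mnx1 or Isl2. Lhx4 rose from 0.546 ± 0.154 to 10.3 ± 0.208 CPM (log2 change 4.23, SE 0.198, edgeR adjusted p = 1.84e-21, n = 3 and 3). The exact 95% counting interval of this change, 3.63 to 4.91 on the log2 scale, is wider than its SE gives. Lhx3 rose from 0.0952 ± 0.11 to 1.05 ± 0.203 CPM (3.40, SE 0.573, adjusted p = 3.7e-06). With 4 counts in the lower group, the ratio of its counts was 11.1, with an exact 95% counting interval of 4.06 to 42.7, and without control replicate 2, which holds 3 of the 4 counts, the log2 change was 4.68. Lhx3 passed the filter on low counts only through the group with Hoxb1 and no SAG, the higher group here. Without the filter its change was 3.4 (edgeR adjusted p = 4.63e-08). Mnx1 was at 0.497 ± 0.137 and 0.452 ± 0.2 CPM (-0.15, SE 0.441, adjusted p = 0.82) and Isl2 at 0.236 ± 0.146 and 0.285 ± 0.154 CPM (0.25, SE 0.6, adjusted p = 0.765). Both were tested here only because they passed the filter in libraries with SAG, and low counts limit what could be called. Of the 4 genes 2 were thus called, against 46.2% of all 16238 genes tested (24.1% higher and 22.1% lower). Their median log2 change was 1.83, beside 0.0 over all tested genes.

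With SAG, Lhx4, Lhx3 and Isl2 were higher with Hoxb1 and Mnx1 was not called. Lhx4 rose from 1.04 ± 0.125 to 22.1 ± 1.74 CPM (log2 change 4.39, SE 0.114, edgeR adjusted p = 2.07e-30, n = 3 and 3), with a log2 counting interval of 4.06 to 4.73. Lhx3 rose from 0.0527 ± 0.0635 to 0.454 ± 0.0614 CPM (2.98, SE 0.6, adjusted p = 7.61e-05), a count ratio of 8.72 (95% counting interval 3.11 to 33.8), and the log2 change was 4.17 without SAG replicate 3, which holds 3 of the 4 counts of its group. Lhx3 was tested here only because it passed the filter in the group with Hoxb1 and no SAG. Without the filter its adjusted p by edgeR was 8.26e-06. Isl2, the partner of Isl1, rose from 0.443 ± 0.0225 to 1.3 ± 0.0757 CPM (1.56, SE 0.273, adjusted p = 9.55e-06). Isl2 passed the filter only through the group with Hoxb1 and SAG, the higher group here. Without the filter its change was 1.55 (edgeR adjusted p = 8.33e-07). Mnx1 was at 0.93 ± 0.0872 and 1.31 ± 0.0867 CPM. Its groups did not overlap, yet the change did not pass the adjusted threshold (0.48, SE 0.225, adjusted p = 0.078 by edgeR). 3 of 4 genes were called, all higher, where 43.4% of all tested genes were called and 21.4% were higher and 21.9% lower, and their median was 2.27 beside 0.0.

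None of the 4 genes passed the test of a difference between the Hoxb1 effects with and without SAG, in which 35.5% of all genes were called by edgeR (16.8% higher and 18.6% lower). At an unadjusted p under 0.05 the count among them was also 0, and DESeq2 called 0 of the 3 for which it gave an adjusted p. The difference was 0.16 on the log2 scale for Lhx4 (SE 0.36, adjusted p = 0.783), 0.63 for Mnx1 (SE 0.498, 0.349) and -0.42 for Lhx3 (SE 1.33, 0.841), the last resting on groups of 4 counts. For Isl2, called with SAG and not without, the difference was 1.30 (SE 0.69, adjusted p = 0.142). The separate calls therefore do not show that its Hoxb1 effect differs by SAG.

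**Figure D2:**
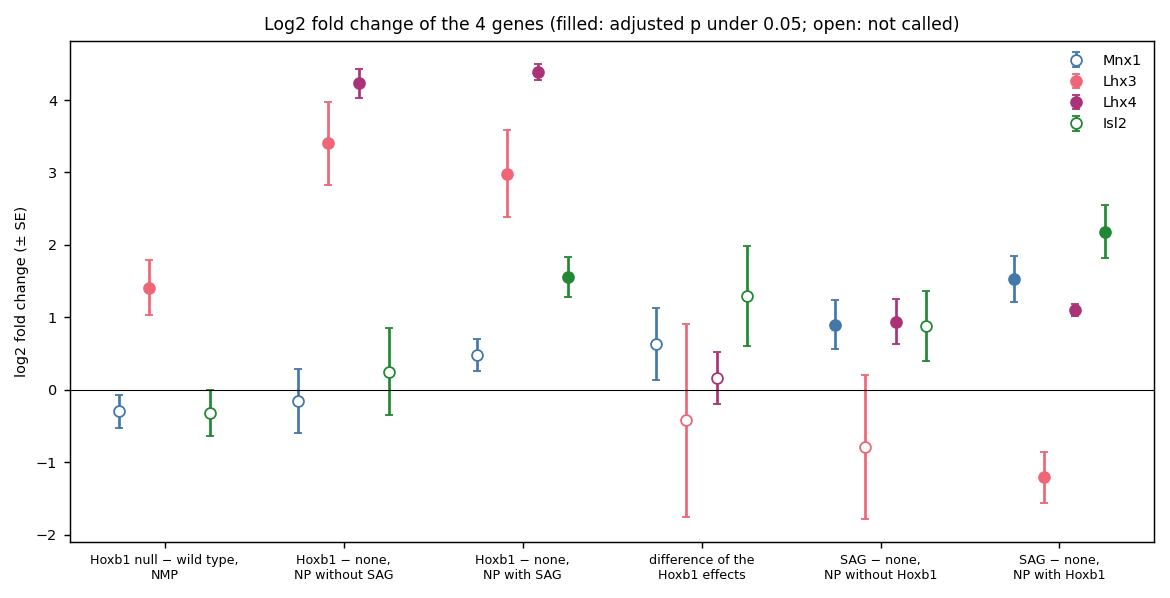
Log2 fold change (vertical axis, ± SE) of Mnx1, Lhx3, Lhx4 and Isl2 in each of the 6 comparisons (horizontal axis), with filled points for an adjusted p under 0.05. Lhx4 and Lhx3 are filled and at 2.98 or above in both Hoxb1 comparisons, all 4 points of the difference of effects are open, and Lhx4 has no point in NMPs, where it fell below the filter on low counts.

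SAG was set against no SAG in each Hoxb1 state. These comparisons share libraries with those of Hoxb1, so the values are given side by side. Without Hoxb1, Lhx4 (log2 change 0.94, SE 0.309, edgeR adjusted p = 0.00637) and Mnx1 (0.90, SE 0.333, 0.0147) were higher with SAG, and Isl2 (0.88, SE 0.484, 0.0986) and Lhx3 (-0.79, SE 0.993, 0.479) were not called. For Mnx1, DESeq2 gave an adjusted p of 0.0565, and edgeR gave 0.0922 when replicate 1 of the untreated neural progenitors was left out, so that neither passed. With Hoxb1 present, Isl2 rose 4.55-fold (2.18, SE 0.367, 1.51e-06), Mnx1 2.90-fold (1.53, SE 0.319, 4.93e-05) and Lhx4 2.14-fold (1.10, SE 0.0826, 2.6e-15), while Lhx3 fell (-1.21, SE 0.348, 0.00215). Isl2 and Lhx3 were tested here only because each passed the filter in its higher group. Lhx3 and Lhx4, related factors that both rose with Hoxb1, thus moved in opposite directions with SAG among the libraries with Hoxb1, and in each case the 3 libraries of one group lay outside the range of the other. 2 of 4 genes were called without Hoxb1, where 72.7% of all genes were (36.5% higher and 36.3% lower), and 4 of 4 with Hoxb1, where 72.2% were (36.4% higher and 35.8% lower), so these counts are not set apart from the background.

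In NMPs, Lhx3 rose in Hoxb1 null cells from 0.367 ± 0.245 to 1.04 ± 0.0843 CPM (log2 change 1.41, SE 0.381, edgeR adjusted p = 0.00728, n = 3 and 3). The wild-type libraries held 2, 12 and 6 counts and the null libraries 17, 17 and 18, with no overlap. Without wild-type replicate 2 the change was 2.04, and without wild-type replicate 1 it was 1.07 (adjusted p = 0.0485). Lhx3 passed the filter on low counts only through the null group, and without the filter the change was 1.4 (edgeR adjusted p = 0.00264). Mnx1 (1.71 ± 0.293 and 1.37 ± 0.159 CPM, log2 change -0.30, adjusted p = 0.358) and Isl2 (0.843 ± 0.0762 and 0.68 ± 0.117 CPM, -0.32, 0.493) were not called, and 28.8% of 15032 genes were. Lhx4 was below the filter on low counts in the 6 NMP libraries, with 23 counts in wild type and 8 in null cells (0.361 as a ratio, 95% counting interval 0.139 to 0.835). Its log2 change was -1.44 without the filter (adjusted p = 0.0746) and -1.43 in a fit of all 18 libraries (0.0475). Lhx3 was thus higher both with more Hoxb1 (neural progenitors) and with less (null against wild-type NMPs). The Hoxb1 RNA left in null cells, 15.3 ± 0.844 CPM against 254 ± 16.1 CPM, cannot be placed inside or outside the altered part of the gene, whose position is not stated in the sources used here.

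**Figure D3:**
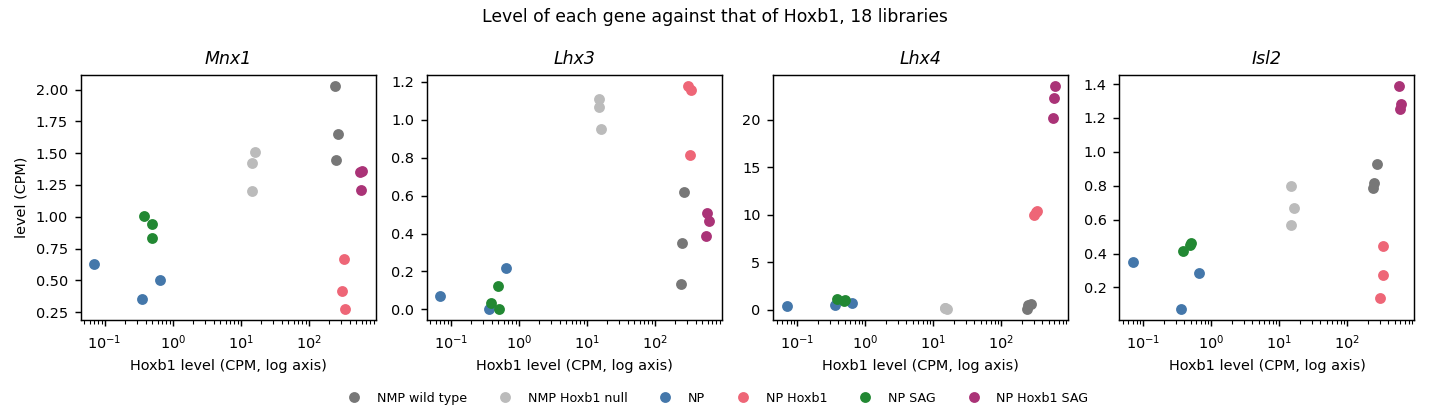
Level of each gene (vertical axis, CPM) against that of Hoxb1 (horizontal axis, CPM, log scale) in the 18 libraries, coloured by group. Wild-type NMPs reach 241 to 272 CPM of Hoxb1 with at most 0.671 CPM of Lhx4, while neural progenitors with Hoxb1 at 305 to 336 CPM hold 10 to 10.4 CPM of Lhx4.

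The genes that act before the 4 factors, those of the motor neuron progenitor domain, moved in both directions with Hoxb1. Nkx6-1, a ventral progenitor factor, rose from 16.7 ± 1.94 to 49.7 ± 0.906 CPM without SAG (log2 change 1.58, SE 0.0592, edgeR adjusted p = 7.83e-25) and from 77.8 ± 0.185 to 337 ± 4.34 CPM with SAG (2.12, SE 0.0337, 2.9e-38). Olig2, the determinant of motor neuron progenitors, fell from 35.4 ± 1.88 to 16.8 ± 0.21 CPM without SAG (-1.06, adjusted p = 4.22e-17) and was at 31.2 ± 1.51 and 30.8 ± 0.153 CPM with SAG (-0.01, 0.906). The proneural factor Neurog2 was at 37.5 ± 5.62 and 42.0 ± 2.08 CPM without SAG (0.17, adjusted p = 0.0444, with a range of 0.000508 to 0.391 over the alternatives) and fell with SAG from 13.1 ± 0.495 to 7.02 ± 0.344 CPM (-0.90, 1.3e-09). Nkx6-2 fell in both (-0.78 and -0.83), and Olig1 fell with SAG by 1.07 on the log2 scale. Of the 6 genes of this list, 3 were higher and 3 lower without SAG, Neurog2 among the higher, and 1 was higher and 4 lower with SAG (medians -0.15 and -0.6). Over all tested genes, 24.1% were higher and 22.1% lower without SAG, and 21.4% and 21.9% with it.

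Of 13 partners and effectors of motor neurons, 7 were higher and 1 lower without SAG, and 9 were higher and 4 lower with it (medians 0.33 and 0.86). The shares of all tested genes were 24.1% higher and 22.1% lower without SAG, and 21.4% and 21.9% with it. Isl1, the LIM factor that joins Lhx3 and Lhx4 in motor neurons, was at 6.59 ± 0.631 and 5.56 ± 1.07 CPM without SAG (log2 change -0.23, edgeR adjusted p = 0.152) and rose with SAG from 20.2 ± 1.05 to 44.8 ± 1.49 CPM (1.15, SE 0.0581, 2.04e-20). Ret, the signalling receptor for GDNF, rose in both (1.95 and 3.23), as did the neuronal factor Ebf2 (0.83 and 1.81). Prph, an intermediate filament of peripherally projecting neurons, rose with SAG from 1.69 ± 0.209 to 10.5 ± 0.228 CPM (2.63, 1.13e-21). Members of the list that fell were Foxp1, of limb-innervating motor neurons, without SAG (91 ± 0.549 to 61.3 ± 1.69 CPM, -0.56, 4.53e-15), and with SAG Foxp1 (-0.31), Mecom (-0.28), Lhx1 (13.3 ± 1.33 to 8.59 ± 0.383 CPM, -0.63, 5.41e-09, but 0.0537 in the fit of all 18 libraries) and Pou3f1 (32.7 ± 1.43 to 22 ± 0.631 CPM, -0.57, 1.01e-10), the last of which rose without SAG (0.77). Foxp1 with SAG, Mecom, Lhx1 and Pou3f1 with SAG were named after their values were seen. Of the cholinergic genes, 3 of the list were in the table. Chat, which makes acetylcholine, rose from 6 to 73 counts without SAG (3.54, SE 0.462, 2.23e-08) and from 9 to 471 with SAG (5.68, SE 0.264, 1.37e-21), and Ache, which breaks it down, rose by less (0.73 and 0.78). Slc5a7, the choline transporter, was not called in either (0.804 ± 0.208 and 0.632 ± 0.104 CPM without SAG, 2.11 ± 0.402 and 2.29 ± 0.329 CPM with it, adjusted p = 0.496 and 0.608). Slc18a3 was not analysed here.

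With Hoxb1, 21.4% of all tested genes were higher and 21.9% lower in the presence of SAG, and 24.1% and 22.1% without it. Of 4 branchiomotor and visceral motor genes, 3 were higher and none lower with Hoxb1 in the presence of SAG (median 2.02), and 1 was higher and 1 lower without SAG (median -0.09). Phox2a, a homeodomain factor of these neurons, rose from 2.58 ± 0.248 to 3.77 ± 0.544 CPM without SAG (log2 change 0.55, SE 0.175, edgeR adjusted p = 0.00883) and from 2.41 ± 0.401 to 33.2 ± 0.468 CPM with SAG (3.80, SE 0.0895, 6.13e-32). The T-box factor Tbx20 rose with SAG from 2.2 ± 0.158 to 37.7 ± 0.777 CPM (4.10, SE 0.095, 3.62e-32). The difference of the Hoxb1 effects was called in 4 of these 4 genes, all higher with SAG, where 35.5% of all genes were called and 16.8% were higher. It was called in none of the 4 somatic factors, at 1.3 for Isl2, 0.63 for Mnx1, 0.16 for Lhx4 and -0.42 for Lhx3. Low counts of Isl2, Mnx1 and Lhx3 limit what could be called there. For Phox2a the difference was 3.25 (SE 0.221, 1.01e-15). No test set one list against the other.

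V2a interneurons share Lhx3 and Lhx4 with motor neurons, so V2 interneuron genes were also measured. Of 9 genes, 5 were higher and 3 lower with Hoxb1 without SAG (median 0.29), and 1 was higher and 3 lower with it (median 0.0). Among all tested genes, 24.1% were higher and 22.1% lower without SAG, and 21.4% and 21.9% with it. Vsx1 rose without SAG from 0.214 ± 0.214 to 1.08 ± 0.148 CPM (log2 change 2.32, SE 0.497, edgeR adjusted p = 1.56e-04), and by 3.27 without replicate 1 of the untreated progenitors. Its difference of the Hoxb1 effects was -1.12 and not called (edgeR adjusted p = 0.426). Foxn4, a factor of V2 progenitors, rose without SAG from 1.52 ± 0.17 to 4.71 ± 1.16 CPM (1.64, SE 0.215, 2.53e-08) and was at 1.47 ± 0.426 and 1.47 ± 0.138 CPM with SAG (0.0, 0.992). The difference of its effects was -1.64 (SE 0.31, 4.12e-05). Bhlhe22, a neuronal bHLH factor, rose from 21.7 ± 0.863 to 74.7 ± 1.73 CPM without SAG (1.8, SE 0.0607, 2.28e-26) and from 11.9 ± 0.445 to 19.9 ± 1.97 CPM with it (0.75, SE 0.068, 2.73e-12), a difference of -1.05 (SE 0.0933, 2.9e-12). In the list of 9 the difference was called lower in 5 and higher in 1, where 18.6% of all genes were lower and 16.8% higher. For Lhx3 and Lhx4 it was not called.

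Of 9 other members of the LIM homeobox family, 2 were higher and 4 lower with Hoxb1 without SAG, and 2 were higher and 7 lower with it (medians -0.44 and -0.86, beside 0.0 over all genes). Shares over all genes were 24.1% higher and 22.1% lower without SAG, and 21.4% and 21.9% with it. Lhx9, of dorsal interneurons, fell from 35.2 ± 3.8 to 7.65 ± 0.864 CPM without SAG (-2.19, edgeR adjusted p = 2.46e-22), and Lhx2 fell in both (-1.31 and -1.47). Lhx6, of the ventral forebrain, fell with SAG from 9.22 ± 0.74 to 1.93 ± 0.192 CPM (-2.24, 6.03e-19), and Lhx8 rose without SAG (1.14) and fell with it (-1.48). Of 10 LIM cofactor genes, through which such factors assemble, none was higher and 7 lower without SAG, and 1 was higher and 6 lower with it, with medians of -0.22 and -0.13.

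**Figure D4:**
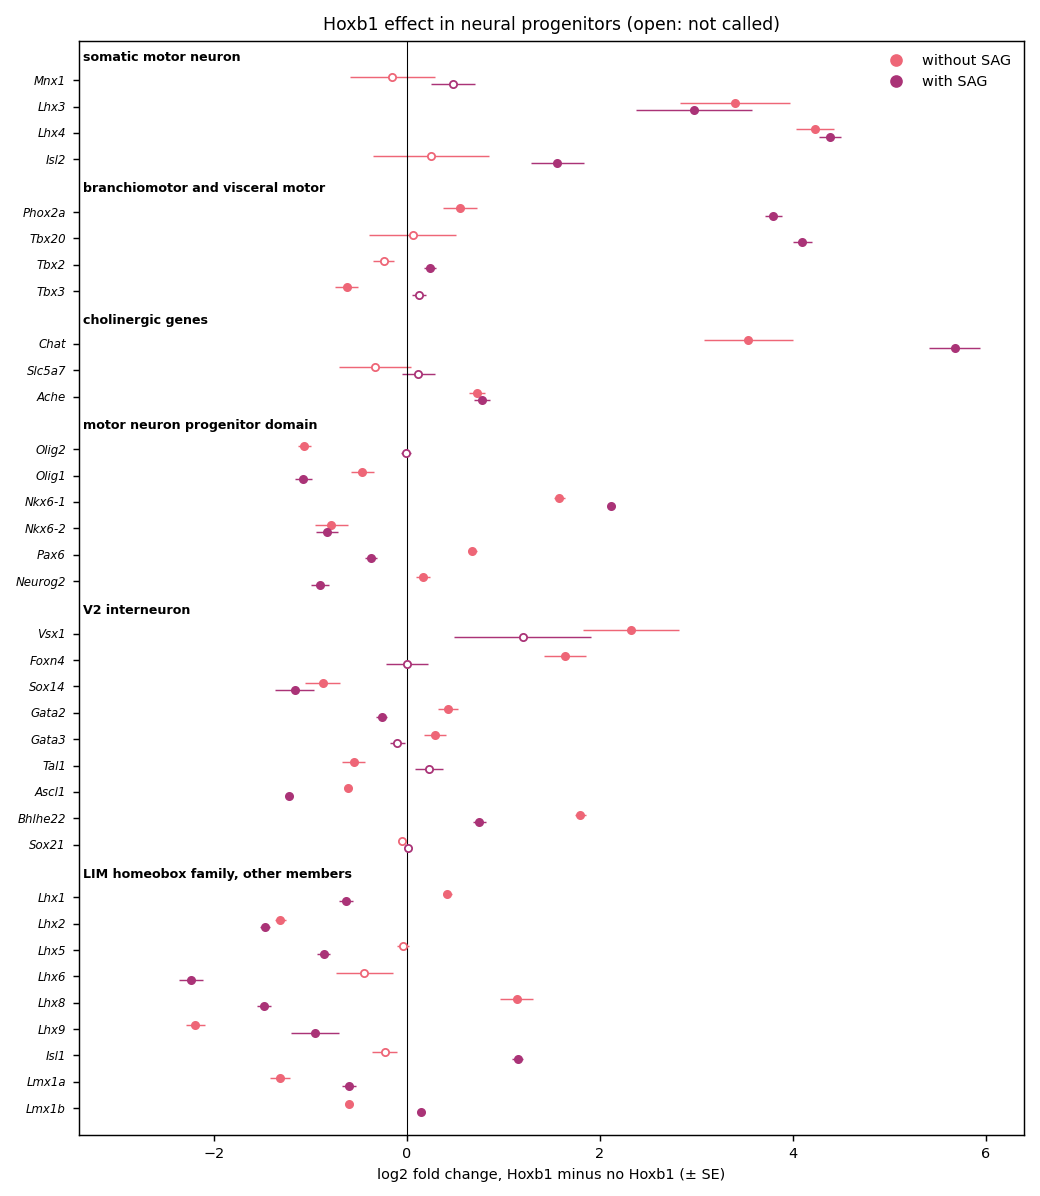
Log2 fold change with Hoxb1 (horizontal axis, ± SE) of Mnx1, Lhx3, Lhx4, Isl2 and the genes of 5 related lists (vertical axis), without and with SAG, filled where called. Phox2a and Tbx20 lie further right with SAG, Vsx1 and Foxn4 further right without it, and Lhx4 at 4.23 and 4.39 in both. The difference of the Hoxb1 effects was not called for Vsx1 or Lhx4.

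Markers of neurons as a whole moved with Hoxb1 beside these genes. 13 of 15 pan-neuronal genes were higher and 2 lower without SAG, and 9 were higher and 4 lower with it (medians 0.52 and 0.29). Their summed level was 2020 to 2110 CPM with neither agent, 2970 to 3130 CPM with Hoxb1, 1130 to 1160 CPM with SAG and 1950 to 2030 CPM with both, with no member at 0. Tubb3, a neuronal tubulin, rose by 0.54 and 0.29 on the log2 scale, and the neurofilament gene Nefl by 1.14 and 3.16. Lhx4 changed by 4.23 and 4.39 in the same comparisons. The part of a change in the share of neurons in the changes of the 4 factors was not tested. Hedgehog feedback genes, a readout of the pathway that SAG turns on, were lower in 4 of 4 with Hoxb1 without SAG and higher in 1 of 4 with it. Gli1 fell from 153 ± 9.59 to 73.7 ± 1.68 CPM in the first (-1.04, edgeR adjusted p = 1.56e-05) and rose from 138 ± 10.3 to 180 ± 17.7 CPM in the second (0.39, 0.00373). Between SAG and no SAG without Hoxb1, Gli1 was not called (138 and 153 CPM, -0.14, adjusted p = 0.161 by edgeR), but it was called lower in the fit of all 18 libraries (0.0466), of these 6 alone (0.0245) and without replicate 1 of Hoxb1 with SAG (0.0192).

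Lhx3, Lhx4, Isl2 and Mnx1 are also used outside the spinal cord, and markers of those tissues were measured. 8 pituitary genes (Lhx3 and Lhx4 act in that gland) summed to 2.23 to 5.47 CPM over the neural progenitor libraries, with Pou1f1 and Tshb at 0 in all 4 groups. 8 sensory neuron and retinal ganglion cell genes summed to 25 to 29.1 CPM with neither agent and 44.7 to 50.1 CPM with Hoxb1, and to 19 to 21.2 and 26 to 28.7 CPM with SAG, none at 0 in these 4 groups. Of the 5 that were tested, 1 was higher and 1 lower without SAG, and 3 were higher and none lower with it. For all tested genes these shares were 24.1% and 22.1% without SAG, and 21.4% and 21.9% with it. Pou4f2, of retinal ganglion cells, rose without SAG from 3.03 ± 0.552 to 26.8 ± 0.747 CPM (log2 change 3.15, edgeR adjusted p = 7.06e-25) and with SAG from 0.243 ± 0.0613 to 1.69 ± 0.371 CPM (2.74, 1.43e-10). The sensory gene Pou4f1 fell without SAG from 15.2 ± 2.43 to 9.18 ± 1.57 CPM (-0.72, 9.23e-07). 12 notochord, endoderm and pancreas genes (Mnx1 is expressed in all 3) summed to 1160 to 1320 CPM in NMPs, where Mnx1 was highest, and to 68.3 to 357 CPM in neural progenitors. This list includes the gene T, which is also among the NMP markers, so a high sum in NMPs does not mark those tissues. 6 oligodendrocyte precursor genes, which share Olig1 and Olig2 with the motor neuron domain, summed to 49.3 to 76.0 CPM without SAG and 128 to 158 CPM with it. The members went both ways with SAG, 3 higher and 2 lower without Hoxb1 and 4 higher and 1 lower with it. For all tested genes the shares were 36.5% higher and 36.3% lower without Hoxb1, and 36.4% and 35.8% with it. Nkx2-2 rose (log2 change 3.42 and 4.3) and Sox10 fell (-1.95 and -1.64). The part of these other genes in the levels of the 4 genes was not tested.

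In NMPs, markers of the labelled cell type moved beside Lhx3: 9 of 10 NMP genes were lower in null cells and 1 was higher (median -0.42). Fgf8 fell from 71.4 ± 2.81 to 29.8 ± 7.55 CPM (log2 change -1.26, edgeR adjusted p = 0.00187), Cdx4 from 19.5 ± 1.61 to 11.3 ± 2.77 CPM (-0.79, 2.68e-04), Wnt3a by 0.53 and Cdx2 by 0.46 on the log2 scale. Their part in the rise of Lhx3 was not tested. The motor neuron progenitor genes were higher in 4 of 6 members and lower in none (median 0.75). Olig2 rose from 4.73 ± 0.638 to 11.5 ± 1.49 CPM (log2 change 1.27, edgeR adjusted p = 1.05e-07), Olig1 from 11.1 ± 1.82 to 22.1 ± 2.96 CPM (0.98, 9.05e-07) and Nkx6-2 from 3.64 ± 0.142 to 6.35 ± 0.78 CPM (0.80, 1.54e-04). Among partners and effectors 5 of 13 were higher and none lower, Prph with the largest change (44.5 ± 2.82 to 118 ± 9.02 CPM, 1.4, 5.48e-14). Isl1 was at 9.28 ± 0.304 and 8.79 ± 1.19 CPM (-0.08, 0.617). Slc5a7 fell from 1.76 ± 0.267 to 1.04 ± 0.0856 CPM (-0.74, 0.0255), which did not pass by DESeq2 (0.125) or when null replicate 1, wild-type replicate 1 or wild-type replicate 3 was left out (0.0663 to 0.105). Other lists moved as well. Of 7 V2 interneuron genes tested, 3 were higher and none lower (median 0.93), as were 2 of 4 branchiomotor and visceral motor genes (0.74). Of 10 notochord, endoderm and pancreas genes tested, 4 were higher and 2 lower (0.44). 14.9% of all genes were higher and 13.9% lower in this comparison. The rise of Lhx3 in null cells thus stood beside one of Olig2 and of genes of other lists. In neural progenitors without SAG Lhx3 rose and Olig2 fell.

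SAG comparisons of the same genes gave further contrasts to Isl2 and Mnx1, which rose with SAG in the presence of Hoxb1. There Isl1 rose from 5.56 ± 1.07 to 44.8 ± 1.49 CPM (log2 change 3.00, SE 0.0858), Tbx20 from 0.514 ± 0.0883 to 37.7 ± 0.777 CPM (6.17, SE 0.151), Chat by 1.87 and Nkx6-1 by 2.76, while Neurog2 fell by 2.58. Without Hoxb1, SAG was accompanied by a rise of Nkx6-1 (2.22) and Isl1 (1.62), while Chat was not called (6 and 9 counts, -0.27, adjusted p = 0.766). Olig2 was lower by 0.18 on the log2 scale (adjusted p = 0.0036), a call lost without replicate 3 of the untreated progenitors (0.0532).

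The genes whose levels went most like each factor over the 12 neural progenitor libraries were found by the correlation of log2(CPM + 0.5) with 13437 genes, libraries that share depth and library set within each SAG state, so that r is a description only. For Lhx4 these were Hmga2 (r = 0.992), Tshz3 (0.992) and Syt2 (0.99). Tshz3 stood at 15.0 ± 0.934, 58.7 ± 1.66, 20 ± 0.39 and 69.1 ± 1.44 CPM with neither agent, Hoxb1, SAG and both. Lhx3 was most like Adam12 (0.973), Ankrd50 (0.971) and Bicd2 (0.971). Adam12 went from 2.44 ± 0.384 to 11.8 ± 0.93 CPM with Hoxb1 and from 2.11 ± 0.0623 to 5.48 ± 0.42 CPM with SAG present. Mnx1 was most like Otub1 (0.959), Isoc1 (0.955) and Pask (0.955), and Isl2 most like Bag2 (0.969), Piezo1 (0.966) and Urm1 (0.966), genes whose group means span a narrow range. Piezo1 for instance lay between 63.8 ± 1.42 and 83.3 ± 2.09 CPM. Among the 4 factors the closest pairs were Mnx1 with Isl2 (r = 0.892) and Lhx3 with Lhx4 (0.776), and Mnx1 with Lhx3 gave -0.224.

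Genes next to each factor were read from the annotation (GENCODE vM21, mm10). Beside Lhx4 lie Acbd6, 6701 bases away (log2 change with Hoxb1 -0.02 without SAG and -0.06 with it, edgeR adjusted p = 0.764 and 0.297), and Qsox1, 24345 bases away, which rose by 0.62 and 0.12 (adjusted p = 5.44e-15 and 0.0155). Qsox2, 348 bases from the start side of Lhx3, fell (-0.28 and -0.12), and Nacc2 on the far side changed by 0.11 (not called) and -0.36. The neighbours of Mnx1 are Nom1 (0.10 and 0.02, neither called) and Ube3c, which fell (-0.22 and -0.09, adjusted p = 1.98e-05 and 0.0338). Those of Isl2, Etfa (0.09 and -0.07) and Scaper (0.05 and -0.12), were not called in either. Lhx3 overlaps the antisense gene Gm27196, not analysed here, and Isl2 overlaps Gm17226, which had 0 counts in all 18 libraries. The kit marks strand, but the strand setting of the counting is not stated in the sources used here, so reads of Lhx3 and of its antisense gene may not be separated.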

How the data were processed

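The deposited table holds raw read counts per gene for 18 libraries, with summed exon lengths in a column of its own. Per the labels' protocols, poly(A) RNA was made into libraries with a directional kit; per the submitters' processing notes, bcl2fastq 1.8.2 and featureCounts 1.4.6 were used with mm10. The aligner, annotation and strand setting are not stated in the sources used here. 35449 of 37224 genes matched a symbol.

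Counts were scaled by TMM and tested with edgeR 4.0.16 (quasi-likelihood, robust, minimum count 10 in its expression filter) in R 4.3.3, with the 6 NMP and the 12 neural progenitor libraries fitted apart. A gene was called at a Benjamini-Hochberg adjusted p under 0.05 over all genes tested. CPM is on the scale of all 18 libraries. Counting intervals (exact, 95%) cover counting error only. SE, also in the figures, is the absolute log2 change divided by the square root of the edgeR F statistic. For large changes on few counts it can be smaller than the counting error. The fit was tested on simulated data. Alternatives were DESeq2 1.42.0, upper-quartile scaling, other filters, other sets of libraries, a replicate block and leaving out each replicate. Replicate numbers were not taken as pairs, since in none of 7 pairs of groups did all 3 same-numbered pairs of libraries correlate (in their deviations from the group means) above 0.1; with SAG, replicates 1 and 2 did (0.378 and 0.357) and replicate 3 did not (0.0191).

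The text names the 4 genes, Hoxb1, preset genes, up to 4 called genes of largest change per list and comparison (at least 1 CPM in the higher group), the 3 genes most like each of the 4, and neighbours. Further values of these genes in other comparisons, and Pou4f2, were chosen after values were seen where outside this rule. The 4 genes and the 17 lists were chosen with earlier results of these data known, and some genes of the lists are not reported here. Promoters are RefSeq, GRCm38.p6.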

Additional observations from a re-analysis of the deposited data

Results flagged for a closer look

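The difference of the Hoxb1 effects was tested with edgeR in Mnx1, Lhx3, Lhx4 and Isl2, none of which was called, and in 30 other genes named with a Hoxb1 effect, of which 22 were called, beside 35.5% of all genes. These 30 were in large part named for their change with Hoxb1, so the shares are not comparable. The SAG states were also separate library sets, which cannot be told apart from SAG. Among motor neuron genes the difference (log2, with minus without SAG) was 4.04 for Tbx20 (3.06 without replicate 1 of the untreated progenitors), 3.25 for Phox2a, 2.27 for Prph, 1.39 for Isl1, 1.28 for Ret, 0.98 for Ebf2, 0.25 for Foxp1, -1.05 for Lhx1 and -1.34 for Pou3f1. Among progenitor genes it was 1.05 for Olig2, 0.54 for Nkx6-1, -0.6 for Olig1 and -1.07 for Neurog2. Among V2 interneuron genes it was -1.64 for Foxn4 and -1.05 for Bhlhe22. Among other LIM homeobox genes it was 1.24 for Lhx9, -1.8 for Lhx6 and -2.62 for Lhx8. It was 1.43 for the hedgehog target Gli1, 2.02 for the neurofilament gene Nefl, -0.26 for the tubulin gene Tubb3 and 0.93 for Pou4f1 of sensory neurons.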

How the results depend on the processing

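Of 12 calls among Mnx1, Lhx3, Lhx4 and Isl2, 11 kept their direction and their side of the threshold under the alternatives run. The exception was Mnx1 with SAG and no Hoxb1, at 0.91 with DESeq2 (adjusted p = 0.0565) and 0.71 to 1.11 when 1 replicate was left out (0.0922 at most). Uncalled changes turned sign in some fits that left out 1 replicate. With Hoxb1 and no SAG, Mnx1 ranged from -0.52 to 0.12 (0.06 without untreated replicate 3) and Isl2 from -0.19 to 0.65 (-0.17 without untreated replicate 1). The difference of the Hoxb1 effects ranged from -1.70 to 0.78 for Lhx3 (0.14 without untreated replicate 1) and from -0.08 to 0.31 for Lhx4, and SAG without Hoxb1 from -1.99 to 0.48 for Lhx3. Isl1 in NMPs ranged from -0.15 to 0.03, Olig2 with Hoxb1 and SAG from -0.05 to 0.02, and Chat with SAG and no Hoxb1 from -0.58 to 0.21 (0.12 without untreated replicate 2). Slc5a7 with Hoxb1 and SAG ranged from -0.03 to 0.23, and the difference of the Hoxb1 effects from -0.23 to 0.13 for Nkx6-2 (0.03 without Hoxb1 replicate 2) and from -0.06 to 0.15 for Ache (-0.01 without SAG replicate 1). Foxn4 with Hoxb1 and SAG, at 0.0, ranged from -0.16 to 0.22, and was at -0.02 with upper-quartile scaling and at -0.0 with DESeq2, the stricter filter, all 18 libraries or the replicate block. The ranges cover fewer samples, and other causes were not tested. The stricter filter removed Lhx3 from every comparison and Isl2 and Lhx4 from that of NMPs, and DESeq2 gave no adjusted p for the Lhx3 difference. The fit of the 6 libraries with SAG alone dropped Lhx3 from the comparison of Hoxb1 with SAG. That of the 6 libraries without SAG dropped Mnx1 and Isl2 from the comparison of Hoxb1 without SAG. That of the 6 libraries without Hoxb1 dropped Lhx3 and Isl2 from the comparison of SAG without Hoxb1. The samples share only replicate numbers. With a replicate block, Hoxb1 without SAG gave 3972 higher and 3641 lower calls, Lhx4 changed by 4.23 and Lhx3 in null NMPs by 1.43 (adjusted p = 0.00792), and no call among the 4 genes changed, while Gli1 with SAG and no Hoxb1 became called (-0.15, adjusted p = 0.000384). All 212 counts of called genes under the alternatives were within 1.5 times the main count. The low counts of Lhx3, Isl2 and Mnx1 limit what could be detected.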
